A study of Homo sapiens with 6 samples.

Results

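Human mitochondria carry their own small circular genome, and the 37 genes it encodes were followed here in A549 cells, a lung adenocarcinoma line. The members were all rows of the deposited gene table whose locus is on the mitochondrial chromosome, 37 of 58302 genes. They comprise 13 protein genes, 2 ribosomal RNAs (rRNAs) and 22 transfer RNAs (tRNAs), and the choice used position only, not measured values. Sequencing libraries were made from total RNA, 3 of cells transfected with SNHG5, a long non-coding small nucleolar RNA host gene, and 3 of cells transfected with vector, called control. The labels call the 3 libraries of each group biological replicates. They do not say whether the transfected cells were a clone, a pool or a transient culture, and an untransfected library was not analysed here. The series title places SNHG5 in migration, invasion and epithelial-mesenchymal transition.

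Both strands of the mitochondrial genome are copied into long transcripts by a dedicated polymerase, POLRMT. tRNAs lie between most of the other genes, and their excision releases the rRNAs and messenger RNAs, an arrangement known as tRNA punctuation. The protein genes encode core subunits of respiratory complexes I, III and IV and of ATP synthase, the machinery of oxidative phosphorylation, while the rRNAs and tRNAs serve mitochondrial translation. All other proteins of these complexes, and all proteins that transcribe, process and degrade mitochondrial RNA, come from nuclear genes.

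The sequences of 5 junctions are shown because neighbouring mitochondrial genes touch or overlap, so that reads of one can be assigned to the next. They were read from GENCODE release 29 transcripts on GRCh38, all on the plus strand, which the annotation gives for 28 members. In the first, capitals mark the 46 bases of MT:8507-8572 that MT-ATP8 shares with MT-ATP6. In the second, capitals mark the 7 bases of MT:10720-10786 that MT-ND4L shares with MT-ND4. In the others, capitals mark a tRNA and the lower case its rRNA neighbour, for MT-TF and MT-RNR1 (MT:577-667), for MT-TV between MT-RNR1 and MT-RNR2 (MT:1582-1690), and for MT-RNR2 and MT-TL1 (MT:3210-3304).
MT-ATP8 into MT-ATP6: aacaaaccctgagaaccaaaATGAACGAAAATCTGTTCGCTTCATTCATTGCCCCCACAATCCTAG
MT-ND4L into MT-ND4: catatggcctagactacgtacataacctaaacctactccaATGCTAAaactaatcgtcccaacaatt
MT-TF before MT-RNR1: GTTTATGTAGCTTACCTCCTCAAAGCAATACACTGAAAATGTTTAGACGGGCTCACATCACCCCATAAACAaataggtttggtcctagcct
MT-TV between the rRNAs: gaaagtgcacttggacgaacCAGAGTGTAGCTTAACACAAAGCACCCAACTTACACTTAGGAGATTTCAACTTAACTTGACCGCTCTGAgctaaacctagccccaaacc
MT-TL1 after MT-RNR2: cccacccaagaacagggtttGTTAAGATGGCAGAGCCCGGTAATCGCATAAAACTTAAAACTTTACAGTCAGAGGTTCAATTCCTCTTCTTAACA

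The libraries held 13378079 to 16823958 counts in the SNHG5 group and 14798193 to 16999604 counts in the control group. SNHG5 itself stood at 153.3, 126.5 and 62.9 CPM (counts scaled to a common library size) in SNHG5 libraries 1, 2 and 3, against 61.0, 101.3 and 55.1 CPM in control libraries 1, 2 and 3. The groups overlapped, because the library labelled SNHG5 3 lay below control 2 (log2 difference 0.66, SE 0.37, edgeR quasi-likelihood adjusted p 0.746), so every direction below is between libraries as labelled. Without SNHG5 1 the difference in SNHG5 was 0.39, and without control 2 it was 0.97. All 5 epithelial markers of the line were detected, with summed levels of 2093 to 3498 CPM in SNHG5 and 3429 to 4234 CPM in control libraries. KRT8 and KRT18 made up most of these sums. EPCAM was low, at 3.25 to 4.28 CPM in SNHG5 and 2.19 to 4.12 CPM in control libraries. CDH1 stood at 7.81, 8.82 and 28.6 CPM in SNHG5 libraries, against 16.6, 34.6 and 28.6 CPM in control libraries. Of 11 markers of blood, endothelial and fibroblast cells, 8 had a count in any library, while PTPRC, CD3E and CDH5 had none, a floor of 0.176 to 0.224 CPM per library for 3 counts. Their sum was 41.5 to 46.0 CPM in SNHG5 and 81.5 to 102.9 CPM in control libraries, without overlap, and most of it was CD68, a lysosomal protein best known from macrophages (26.3 to 40.5 CPM in SNHG5 and 72.8 to 94.4 CPM in control libraries). The part of these markers in the results below was not tested.

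Mitochondrially encoded genes took 5.04%, 3.80% and 6.16% of all counts in SNHG5 libraries 1, 2 and 3, against 4.60%, 2.57% and 5.31% in control libraries 1, 2 and 3. The groups overlapped, and replicate 2 was the lowest library of each. The mean was 5.00 ± 1.18% in SNHG5 and 4.16 ± 1.42% in control libraries (SD, n = 3 each), a ratio of 1.23 between geometric means with a two-sided exact permutation p of 0.6. The smallest p that 3 libraries against 3 can give is 0.1. Without control 2 the log2 difference turned to -0.01. In bulk RNA, a lower level per cell and fewer cells that hold the RNA cannot be told apart.

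The rRNAs were the class whose share did not overlap between the groups. MT-RNR1 and MT-RNR2, which form the small and large subunit RNAs of the mitochondrial ribosome, together took 1.14%, 1.04% and 1.12% of counts in SNHG5 libraries, against 0.852%, 0.800% and 0.839% in control libraries. The lowest SNHG5 library thus lay above the highest control library. Most of these counts were of MT-RNR2, and MT-RNR1 alone overlapped between the groups, as given below. Means were 1.10 ± 0.0559% in SNHG5 and 0.830 ± 0.0270% in control libraries (SD, n = 3 each), a ratio of 1.32. The exact permutation p was 0.1, the smallest possible, and 0.6 after Benjamini-Hochberg adjustment over the 6 composition values tested, so the difference did not pass. Over the fits without 1 library the log2 difference of this share ran from 0.38 to 0.45. That separation was already among the known results of these data, and its values are given as a description.

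The other classes overlapped. The 13 protein genes took 3.89%, 2.75% and 5.02% of counts in SNHG5 libraries, against 3.73%, 1.76% and 4.46% in control libraries (exact permutation p 0.6). The 22 tRNAs took only 0.0179%, 0.0126% and 0.0164% in SNHG5 libraries, against 0.0174%, 0.00696% and 0.0150% in control libraries (exact permutation p 0.6). In both classes replicate 2 was lowest in each group, and without control 2 the log2 differences turned to -0.11 for protein genes and -0.06 for tRNAs. The ratio of rRNA to protein gene counts, which does not depend on the total of nuclear counts, was 0.293, 0.377 and 0.224 in SNHG5 libraries, against 0.229, 0.454 and 0.188 in control libraries (exact permutation p 0.9). Its log2 difference was 0.11, and 0.096 with the counts at nuclear copies, given below, added. Replicate 2 was here the highest library of each group.

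**Figure D1:**
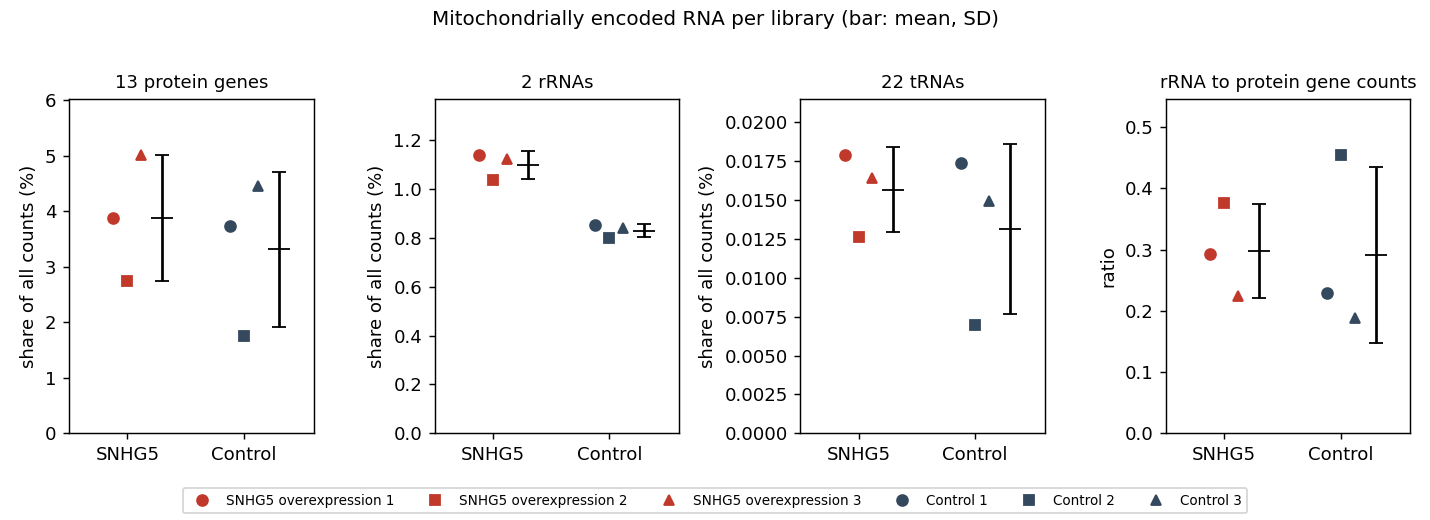
Share of all counts on the protein genes, rRNAs and tRNAs (percent), and the ratio of rRNA to protein gene counts, for each library, with SNHG5 libraries in red, control libraries in dark grey and the mean with its SD (n = 3 each) in black. The rRNA share lies at 1.04% to 1.14% in SNHG5 and 0.800% to 0.852% in control libraries, while the other panels overlap.

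No mitochondrially encoded gene passed the threshold of 0.05 on adjusted p. Of the 37 members, 34 passed the filter on low counts, and 0 of these were called higher and 0 lower, against 0.128% of all 15631 genes tested. The smallest adjusted p among members was 0.746, and none had an unadjusted edgeR p under 0.05, which 6.49% of all genes tested had. With the replicate number as a block again 0 members were called, against 0.467% of all genes, and 1 member, MT-TV, had an unadjusted p under 0.05. DESeq2 and limma-voom also called 0 members, with 1 (MT-RNR2) and 0 at an unadjusted p under 0.05. Standard errors of the members' log2 differences ran from 0.19 to 0.71, so differences smaller than these could not be resolved with 3 libraries per group. Larger ones could go uncalled too, as did the nuclear gene PNPT1 described below (-0.95, SE 0.25, edgeR adjusted p 0.348). The absence of calls therefore does not show that the members were unchanged.

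Fitted differences leaned to higher values in the SNHG5 libraries, but this rested on single libraries. The estimate lay above 0 for 12 of 13 protein genes, both rRNAs and 16 of 19 tested tRNAs. Their medians were 0.14, 0.34 and 0.18 on the log2 scale, beside 0.01 over all genes tested. Without control 2 only 1 of 13 protein genes lay above 0, with a median of -0.13, and without SNHG5 3 it was 4 of 13, with a median of -0.09. The rRNAs lay above 0 in each fit without 1 library. In same-numbered libraries, protein genes had a median log2 difference of -0.01 in pair 1, 0.65 in pair 2 and 0.08 in pair 3.

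**Figure D2:**
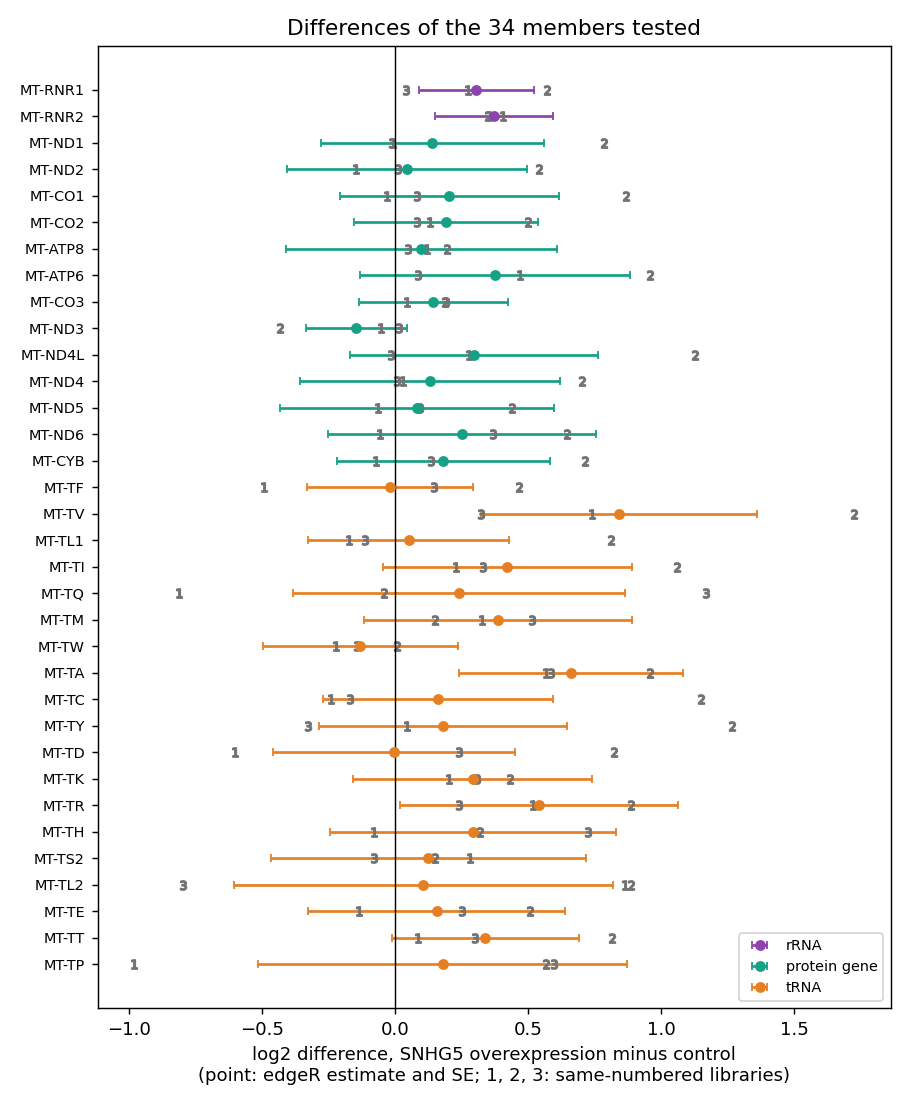
Log2 difference of each of the 34 members tested, SNHG5 minus control, as the edgeR estimate with its SE, coloured by class, with the digits 1, 2 and 3 for the differences between same-numbered libraries. The estimates run from -0.15 (MT-ND3) to 0.84 (MT-TV), and pair 2 gives the median of 0.65 for protein genes against -0.01 and 0.08 in pairs 1 and 3.

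Among the rRNAs, MT-RNR2 (ENSG00000210082, MT 1671 to 3229) is the large subunit RNA. It stood at 10176, 8740 and 10002 CPM in SNHG5 libraries, against 7693, 6859 and 7826 CPM in control libraries. Every SNHG5 library lay above every control library, and the same-numbered libraries differed by 0.40, 0.35 and 0.35 on the log2 scale. The fitted difference was 0.37 (SE 0.22, edgeR adjusted p 0.746), or 1.29-fold. MT-RNR2 was the 1 member of 34 whose CPM values did not overlap between the groups. Over all genes tested, 6.04% lay wholly higher and 7.52% wholly lower in the SNHG5 libraries, so that share of members is below the background.

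MT-RNR1 (ENSG00000211459, MT 648 to 1601), the small subunit RNA, stood at 1331, 1342 and 983 CPM in SNHG5 libraries, against 1101, 904 and 955 CPM in control libraries. SNHG5 3 fell among the controls, and the fitted difference was 0.30 (SE 0.22, edgeR adjusted p 0.749). The rRNAs are made from the same promoter region but were far from equal per length. Per 100 FPKM, the deposited level per gene length and library total, of MT-RNR2, MT-RNR1 had 21.4, 25.1 and 16.1 FPKM in SNHG5 libraries, against 23.4, 21.5 and 19.9 FPKM in control libraries. MT-RNR1 was thus the lower of the pair in each of the 6 libraries.

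The protein genes of complex IV, cytochrome c oxidase, gave the most counts of any complex. MT-CO1, MT-CO2 and MT-CO3 encode its catalytic core. MT-CO1 (MT 5904 to 7445) stood at 11779, 9278 and 15478 CPM in SNHG5 libraries, against 12030, 5087 and 14605 CPM in control libraries. The groups overlapped, with control 2 far below the rest, and the fitted difference was 0.20 (SE 0.41, edgeR adjusted p 0.887). MT-CO2 (MT 7586 to 8269) stood at 3335, 2319 and 3875 CPM in SNHG5 libraries, against 3048, 1640 and 3664 CPM in control libraries. MT-CO3 (MT 9207 to 9990) stood at 3924, 3595 and 5618 CPM in SNHG5 libraries, against 3809, 3160 and 4927 CPM in control libraries. Both overlapped between the groups, at fitted differences of 0.19 (SE 0.35) and 0.14 (SE 0.28), with control 2 the lowest library for each. Together the 3 genes took 48.5%, 56.7% and 50.8% of protein gene counts in SNHG5 libraries, against 49.1%, 57.9% and 49.7% in control libraries.

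Complex I, the NADH dehydrogenase, has 7 mitochondrially encoded subunits, which form its proton-pumping membrane arm. They took 39.3%, 32.7% and 37.3% of protein gene counts in SNHG5 libraries, against 39.6%, 31.9% and 38.7% in control libraries. In replicate 2 of both groups the complex I share was thus lower, and the complex IV share higher, than in the other replicates. Both are shares of the same total and make up most of it, so a rise in one largely entails a fall in the other. MT-ND4 (MT 10760 to 12137), the most counted of the 7, stood at 6137, 3429 and 7568 CPM in SNHG5 libraries, against 6013, 2108 and 7524 CPM in control libraries. Same-numbered libraries differed by 0.03, 0.70 and 0.01 on the log2 scale, so that the largest gap was in replicate 2 (fitted difference 0.13, SE 0.49, edgeR adjusted p 0.941). MT-ND4L, which shares its last bases with MT-ND4 as printed above, stood at 2202, 1362 and 2352 CPM in SNHG5 libraries, against 1819, 623 and 2376 CPM in control libraries. Its fitted difference was 0.30 (SE 0.47), and control 2 was again lowest.

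MT-ND1 and MT-ND2, nearest to the rRNAs, had fitted log2 differences of 0.14 (SE 0.42) and 0.05 (SE 0.45). MT-ND1 stood at 2508, 1544 and 2561 CPM in SNHG5 libraries, against 2525, 896 and 2582 CPM in control libraries. MT-ND2 stood at 1466, 899 and 1961 CPM in SNHG5 libraries, against 1626, 619 and 1948 CPM in control libraries. In both genes replicates 1 and 3 were nearly level between the groups. MT-ND5, the longest of the protein genes, stood at 2697, 1242 and 3363 CPM in SNHG5 libraries, against 2824, 916 and 3155 CPM in control libraries (fitted difference 0.08, SE 0.51). It overlapped between the groups in the same manner.

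MT-ND3 was the protein gene with the least variation. It stood at 184, 154 and 213 CPM in SNHG5 libraries, against 192, 207 and 211 CPM in control libraries. It alone of the 13 was not lowest in control 2, and its fitted difference, -0.15 (SE 0.19, edgeR adjusted p 0.826), was the only negative one among protein genes. That sign held in each fit without 1 library, where estimates ran from -0.27 without SNHG5 3 to -0.039 without SNHG5 2.

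MT-ND6 (ENSG00000198695, MT 14149 to 14673) is the only protein gene annotated on the minus strand, and it is read from the light-strand transcript. It stood at 213, 113 and 316 CPM in SNHG5 libraries, against 222, 72.1 and 245 CPM in control libraries. The groups overlapped, and its fitted difference was 0.25 (SE 0.50, edgeR adjusted p 0.887). It took 0.544%, 0.422% and 0.642% of protein gene counts in SNHG5 libraries, against 0.577%, 0.422% and 0.524% in control libraries (exact permutation p 0.8). The library kit named in the labels does not mark strand, so counts of MT-ND6 may include heavy-strand RNA that runs across it.

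MT-CYB (MT 14747 to 15887) encodes cytochrome b, the single mitochondrial subunit of complex III. It stood at 2264, 1744 and 3218 CPM in SNHG5 libraries, against 2381, 1065 and 2930 CPM in control libraries (fitted difference 0.18, SE 0.40, edgeR adjusted p 0.899). The groups overlapped, and its share of protein gene counts stayed between 5.77% and 6.55% in SNHG5 libraries and between 6.19% and 6.28% in control libraries.

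The ATP synthase subunits MT-ATP8 and MT-ATP6 share a bicistronic message and the 46 bases printed above. MT-ATP6 (MT 8527 to 9207) stood at 1638, 744 and 1584 CPM in SNHG5 libraries, against 1182, 383 and 1493 CPM in control libraries. It was higher in the SNHG5 library of each same-numbered pair, by 0.47, 0.96 and 0.09 on the log2 scale, but the groups overlapped and the estimate of 0.37 (SE 0.51, edgeR adjusted p 0.832) was the largest among protein genes without passing. MT-ATP8 (MT 8366 to 8572) stood at 882, 348 and 1027 CPM in SNHG5 libraries, against 812, 305 and 993 CPM in control libraries (fitted difference 0.10, SE 0.51). In this gene both replicate 2 libraries lay far below the other 4.

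**Figure D3:**
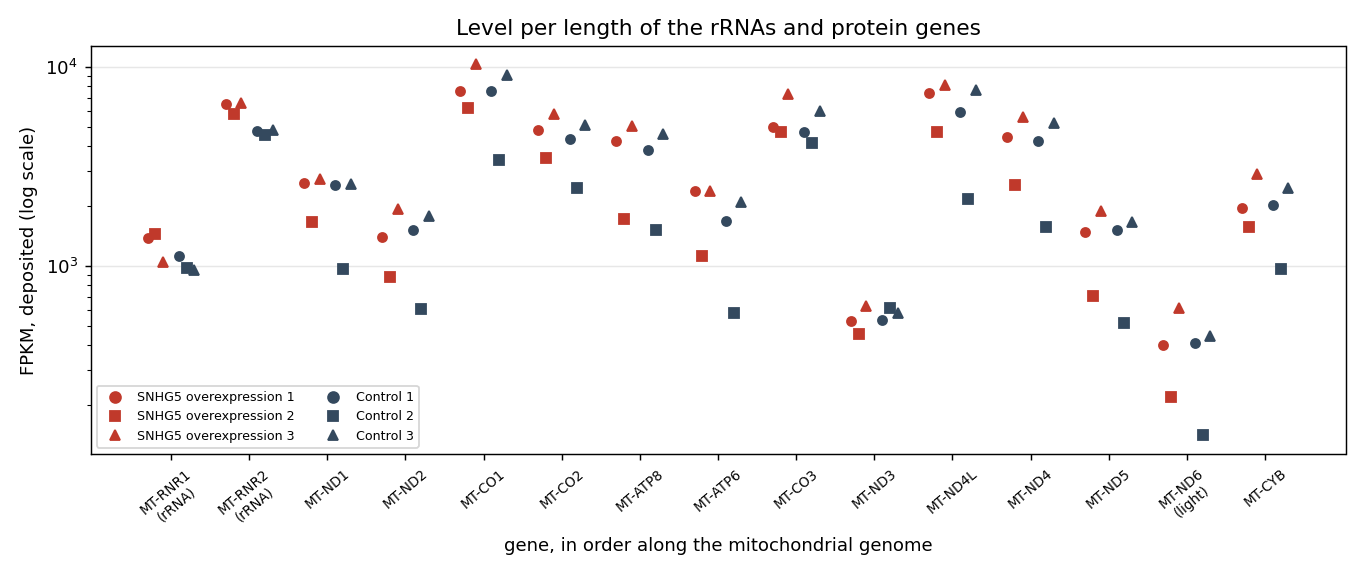
Deposited FPKM of the 2 rRNAs and 13 protein genes on a log scale, in their order along the mitochondrial genome, with 3 SNHG5 libraries (red) left of 3 control libraries (dark grey) for each gene. MT-CO1 spans 3399 to 10250 FPKM and MT-ND6 142 to 614 FPKM, and replicate 2 (squares) lies lowest within its group for most protein genes.

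Per length, the protein genes kept a nearly fixed order although they are cut from shared transcripts. MT-CO1 averaged 7999 ± 2069 FPKM in SNHG5 and 6668 ± 2927 FPKM in control libraries (SD, n = 3 each), and it ranked first of 13 in all libraries except control 2, where MT-CO3 led. MT-ND4L averaged 6714 ± 1775 FPKM in SNHG5 and 5245 ± 2803 FPKM in control libraries, and MT-CO3 5662 ± 1439 FPKM in SNHG5 and 4954 ± 950 FPKM in control libraries. The spreads of these neighbours between libraries overlapped, but within each of the 6 libraries MT-CO1 lay above MT-ND4L. MT-ND4L lay above MT-CO3 in all libraries except control 2, though only by 4710.46 against 4709.77 FPKM in SNHG5 2. MT-ND6 was last in all 6 libraries, at 412 ± 197 FPKM in SNHG5 and 332 ± 166 FPKM in control libraries, and MT-ND3 was next to last in all but control 2. The FPKM of MT-ND4L exceeded that of MT-ND4 (4192 ± 1538 FPKM in SNHG5 and 3673 ± 1882 FPKM in control libraries) although they lie on the same message. Both short genes, MT-ND4L and MT-ATP8, share bases with a longer neighbour, and how fragments that reach across an end were counted is not stated in the labels. Counts at nuclear copies, given below, were not added to these levels. They were far larger relative to MT-ND2 and MT-ATP6 than to MT-CO1, so the order holds for reads as assigned.

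The tRNAs were rarely counted. All 22 together had 2980, 1688 and 2766 counts in SNHG5 libraries, against 2699, 1030 and 2546 counts in control libraries. MT-TL1, MT-TV and MT-TF, the tRNAs for leucine, valine and phenylalanine that adjoin the rRNAs as printed above, held 79.2%, 81.1% and 74.2% of these in SNHG5 libraries, against 78.9%, 78.0% and 78.2% in control libraries. tRNA genes are shorter than usual sequencing fragments, so a tRNA count may stem from uncut precursors as well as from mature tRNA. The 8 tRNAs annotated on the minus strand held 5.27% to 8.82% of tRNA counts in SNHG5 libraries and 6.04% to 7.31% in control libraries. Since the kit does not mark strand, these counts may include heavy-strand RNA that runs across them.

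MT-TV had the largest fitted difference of any member. Besides carrying valine, it is built into the large subunit of the human mitochondrial ribosome. It stood at 44.0, 23.2 and 17.2 CPM in SNHG5 libraries, against 26.3, 7.02 and 13.8 CPM in control libraries. The SNHG5 library was higher in each of the 3 same-numbered pairs, by 0.74, 1.73 and 0.32, but the groups overlapped. The fitted difference was 0.84 (SE 0.52, edgeR adjusted p 0.746, and 0.92 with adjusted p 0.495 with the replicate block), or 1.79-fold. It ran from 0.36 without SNHG5 1 to 1.43 without control 1, and was 0.49 without control 2.

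MT-TL1 stood at 86.5, 63.1 and 91.9 CPM in SNHG5 libraries, against 97.7, 36.0 and 99.4 CPM in control libraries (fitted difference 0.05, SE 0.38). MT-TF stood at 12.7, 13.3 and 10.4 CPM in SNHG5 libraries, against 17.9, 9.64 and 9.36 CPM in control libraries (fitted difference -0.02, SE 0.31). Both overlapped between the groups, and MT-TF lacked the drop of the protein genes in SNHG5 2. Of the other 16 tested tRNAs, MT-TA (alanine), MT-TR (arginine) and MT-TI (isoleucine) had the largest estimates, 0.66 (SE 0.42), 0.54 (SE 0.52) and 0.42 (SE 0.47). These rested on few counts, with 26, 14 and 27 counts of MT-TA in SNHG5 libraries against 16, 8 and 17 in control libraries. Single libraries moved them. Without control 2 the estimates were 0.40 for MT-TA, 0.31 for MT-TR and 0.053 for MT-TI. MT-TR ran from 0.11 without SNHG5 1 to 0.98 without control 1, and MT-TI was at 0.22 without SNHG5 3, 0.65 without SNHG5 2 and 0.68 without control 3.

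The estimates of the next tRNAs were 0.39 (SE 0.50) for MT-TM (methionine), 0.34 (SE 0.35) for MT-TT (threonine), 0.29 (SE 0.45) for MT-TK (lysine), 0.29 (SE 0.54) for MT-TH (histidine) and 0.24 (SE 0.63) for MT-TQ (glutamine). Without control 2, those of MT-TM, MT-TT and MT-TK were only 0.087, 0.079 and 0.00082. MT-TM was at 0.066 without SNHG5 3, 0.72 without SNHG5 2 and 0.59 without control 3. Without control 1, MT-TT and MT-TK were at 0.57 and 0.57, and MT-TK was at 0.066 without SNHG5 1 and 0.53 without SNHG5 2. Those of MT-TP (proline), MT-TY (tyrosine), MT-TC (cysteine), MT-TE (glutamate), MT-TS2 (serine) and MT-TL2 (leucine) lay between 0.11 and 0.18, and MT-TD (aspartate) and MT-TW (tryptophan) were at -0.0048 and -0.13. All tested tRNAs had an edgeR adjusted p of 0.746 or more. MT-TG (glycine), MT-TN (asparagine) and MT-TS1 (serine) fell under the filter, with 13, 6 and 9 counts of MT-TG in SNHG5 libraries against 8, 4 and 5 in control libraries. MT-TN had 3 to 6 counts in SNHG5 and 4 to 6 in control libraries, and MT-TS1 had 3 to 7 in SNHG5 and 4 to 9 in control libraries, levels at which no difference was detectable.

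Replicate 2 stood low for most members in either group. For 26 of the 34 tested members, 12 of 13 protein genes among them, replicate 2 was the lowest library of both groups, which held for 15.7% of all genes tested. The highest library exceeded the lowest by a median of 3.17-fold over protein genes and 3.39-fold over tested tRNAs, against 1.48-fold for each rRNA and 2.02-fold over the 15472 tested genes with a count in every library. The largest such ranges among protein genes were 4.38-fold for MT-ND6 and 4.28-fold for MT-ATP6, and the smallest were 1.39-fold for MT-ND3 and 1.78-fold for MT-CO3. MALAT1 and NEAT1, nuclear RNAs, summed to 682, 261 and 522 CPM in SNHG5 libraries, against 594, 53.0 and 509 CPM in control libraries. Replicate 2 was lowest in both groups for the sum and for MALAT1 (122 CPM in SNHG5 2 and 28.9 CPM in control 2). NEAT1 was lowest in control 2 (24.1 CPM), but in the SNHG5 group SNHG5 3 (104 CPM) lay below SNHG5 2 (140 CPM). The part of RNA composition in the low mitochondrial levels of the replicate 2 libraries was not tested.

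**Figure D4:**
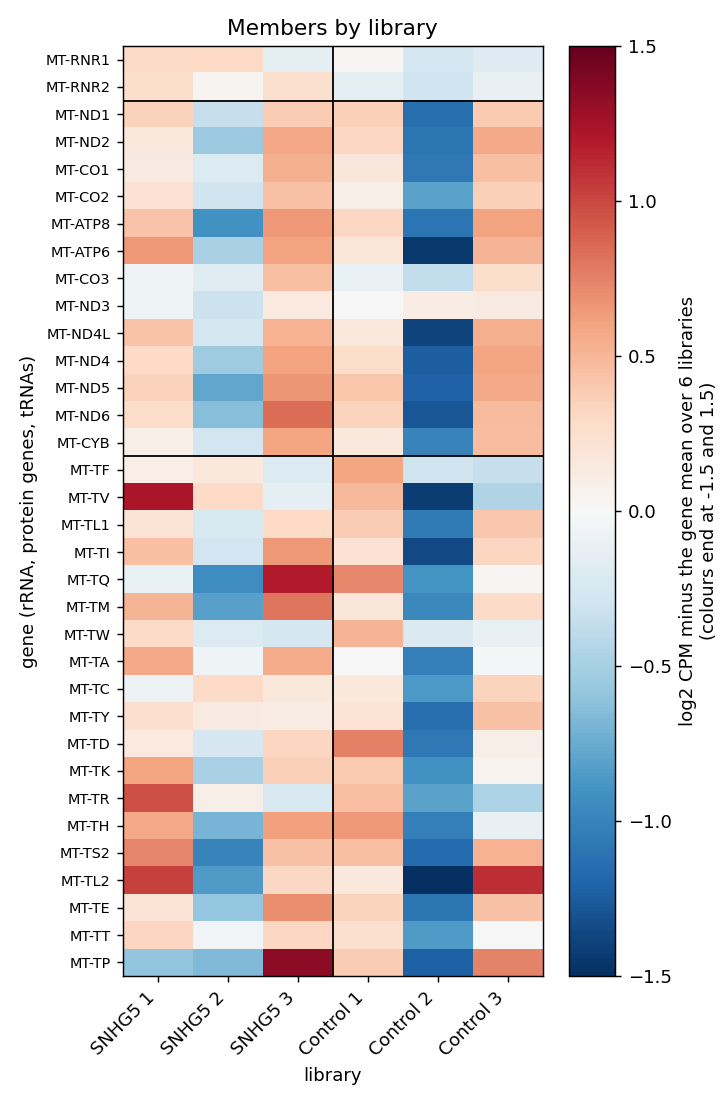
Log2 CPM of each of the 34 tested members by library, minus the gene's mean over the 6 libraries, with rRNAs, protein genes and tRNAs from top to bottom and SNHG5 libraries left of control libraries. Control 2 is lowest for 30 of the 34 genes, beside 4167 of all 15631 genes tested. The rRNAs and MT-ND3 vary little between libraries.

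Nuclear copies of mitochondrial genes can take their reads, and the table lists 407 such pseudogenes and MT-RNR2-like genes, and 62 of them were counted at least once. They held 53928, 25714 and 48581 counts in SNHG5 libraries, against 33897, 12824 and 44268 counts in control libraries. The 3 with the most counts, MTND2P28, MTATP6P1 and MTCO1P12, lie close together on chromosome 1 and made up 88.3% to 89.7% of these counts in SNHG5 and 85.9% to 90.5% in control libraries. Against the mitochondrial gene, MTND2P28 is 98.4% identical with a longest shared run of 266 bases, MTATP6P1 98.5% with 141 bases, and MTCO1P12 98.6% with 245 bases.

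The stretches of 60 bases with the most mismatches between each copy and its mitochondrial gene show how close they are. Capitals mark the mismatches, all sequences are on the plus strand of GRCh38, and each mitochondrial gene is followed by its copy.
MT-ND2, MT:4899-4958: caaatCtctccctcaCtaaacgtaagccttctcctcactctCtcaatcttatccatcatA
MTND2P28, 1:630069-630128: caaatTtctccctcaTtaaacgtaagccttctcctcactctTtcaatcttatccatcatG
MT-ATP6, MT:8642-8701: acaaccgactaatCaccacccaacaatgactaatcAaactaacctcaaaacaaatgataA
MTATP6P1, 1:633811-633870: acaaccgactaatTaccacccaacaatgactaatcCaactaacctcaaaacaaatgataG
MT-CO1, MT:6207-6266: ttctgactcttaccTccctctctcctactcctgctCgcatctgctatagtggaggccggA
MTCO1P12, 1:631377-631436: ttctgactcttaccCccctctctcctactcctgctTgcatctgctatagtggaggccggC

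The share of reads at these copies differed between genes and libraries. MTCO1P12 had 8.67, 6.30 and 3.68 counts per 100 counts of MT-CO1 in SNHG5 libraries, against 3.58, 3.11 and 3.54 in control libraries. The groups did not overlap, but SNHG5 3 lay close to the controls. MTND2P28 had 74.7, 70.2 and 49.9 counts per 100 of MT-ND2 in SNHG5 libraries, against 52.8, 43.0 and 50.9 in control libraries, again with SNHG5 1 and 2 apart from the other 4. MTATP6P1 went the other way, at 47.8, 58.5 and 62.4 counts per 100 of MT-ATP6 in SNHG5 libraries, against 63.8, 77.7 and 63.6 in control libraries. Adding the copies to their mitochondrial gene left 0 members called, with estimates of 0.16 for MT-ND2, 0.29 for MT-ATP6 and 0.24 for MT-CO1.

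**Figure D5:**
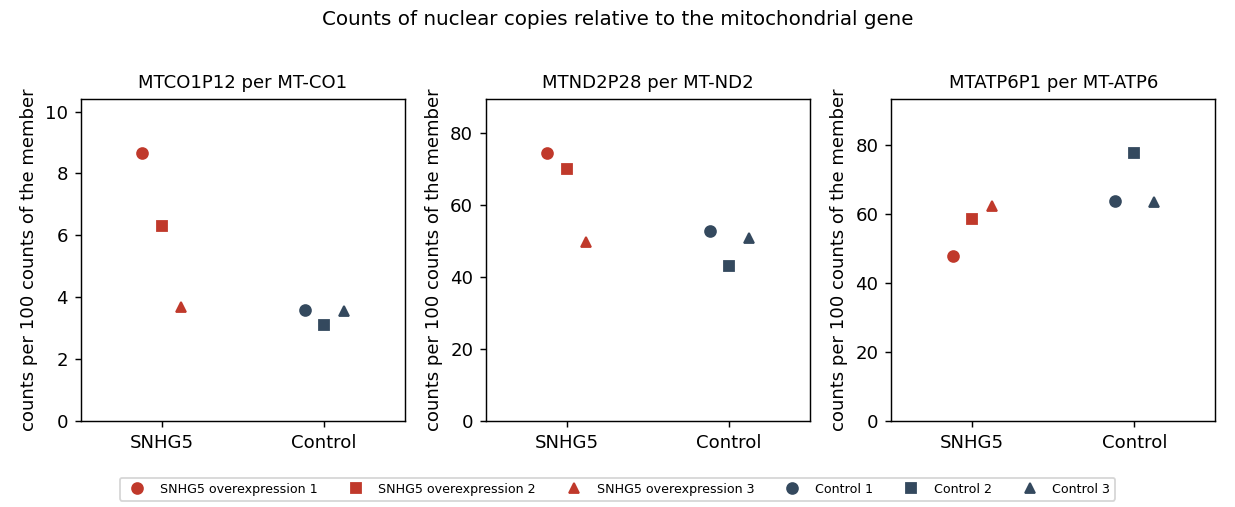
Counts of 3 nuclear copies per 100 counts of their mitochondrial gene in each library, SNHG5 libraries in red and control libraries in dark grey. MTCO1P12 reaches 8.67 in SNHG5 1 and stays at 3.11 to 3.58 in control libraries, and MTATP6P1 is highest in control 2 at 77.7.

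None of the copies passed the edgeR threshold, which 0.128% of all genes tested did. Of 407, 12 could be tested, and all 12 estimates lay above 0, beside 7932 of all 15631 genes. In CPM, 6 of the 12 lay wholly higher and 0 wholly lower in SNHG5 libraries, beside 6.04% and 7.52% of all genes. For 3 the unadjusted edgeR p was under 0.05, beside 6.49% of all genes. The copies can take reads of members cut from shared transcripts, so the 12 are not separate observations. MTCO1P12 had a fitted log2 difference of 0.97 (SE 0.45, edgeR adjusted p 0.746), MTND2P28 of 0.35 (SE 0.46) and MTATP6P1 of 0.14 (SE 0.45). MTCO1P12 was at 0.61 without control 2 and 0.65 without SNHG5 1. The smallest unadjusted p values were those of MTRNR2L12, an MT-RNR2-like gene, and MTCO2P2. MTRNR2L12 stood at 106.6, 75.3 and 62.8 CPM in SNHG5 libraries, against 47.3, 41.1 and 49.6 CPM in control libraries, without overlap (0.83, SE 0.24, edgeR adjusted p 0.435). Since it is 95.0% identical to MT-RNR2 over its length, with a longest shared run of 99 bases, its counts are uncertain.

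Of the nuclear genes that maintain and transcribe the mitochondrial genome, 0 of 20 passed in either direction, against 0.128% of all genes tested. With so small a share, the absence of calls here and in the nuclear lists below says little about the genes listed. These 20 genes had a median log2 difference of 0.12, beside 0.01 over all genes. Their smallest p values belonged to TWNK, the mitochondrial DNA helicase, at -0.44 (SE 0.21), and POLRMT at -0.56 (SE 0.31), both with an edgeR adjusted p of 0.746. POLRMT stood at 26.0, 40.5 and 62.2 CPM in SNHG5 libraries, against 56.7, 72.9 and 60.4 CPM in control libraries. SNHG5 3 lay among the controls, and the difference was -0.30 without SNHG5 1 and -0.93 without SNHG5 3. Of the RNA processing and modification genes, 0 of 27 passed, with a median of -0.08. TRMT5, a tRNA methyltransferase, and TRMT10C, a subunit of mitochondrial RNase P, which cuts tRNAs out of the precursor, were at 0.39 (SE 0.20) and 0.38 (SE 0.21), TRMT10C at 0.22 without control 2.

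Of the genes for mitochondrial RNA stability and decay, 0 of 21 passed, against 0.128% of all genes tested, with a median of 0.05. In CPM, 1 of the 21 lay wholly higher and 2 wholly lower in SNHG5 libraries, beside 6.04% and 7.52% of all genes. The smallest p was that of PNPT1, polynucleotide phosphorylase, which degrades mitochondrial RNA and is known to be induced by interferon. It stood at 339, 253 and 335 CPM in SNHG5 libraries, against 651, 427 and 719 CPM in control libraries. All SNHG5 libraries lay below all control libraries, by 0.94, 0.75 and 1.10 on the log2 scale in same-numbered pairs. The fitted difference was -0.95 (SE 0.25), with an edgeR adjusted p of 0.348, 0.124 with the replicate block and 0.0465 in DESeq2, the only one of the settings tried that called it. DESeq2 called 266 of all genes tested, against 20 with edgeR. FASTKD1, a mitochondrial RNA-binding protein, stood at 19.1, 21.9 and 21.9 CPM in SNHG5 libraries, against 14.2, 10.8 and 15.9 CPM in control libraries (0.62, SE 0.23, edgeR adjusted p 0.695).

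The nuclear partners of the mitochondrially encoded subunits gave no call either, against 0.128% of all genes tested. Of 37 complex I, 9 complex III, 11 complex IV and 15 ATP synthase subunits, 0 passed in each list, with median log2 differences of -0.26, -0.32, -0.47 and -0.23. The mitochondrially encoded protein genes had a median of 0.14. NDUFA9 and NDUFB11 of complex I were at -0.64 (SE 0.31) and -0.73 (SE 0.36), and COX6B1 and COX6A1 of complex IV at -0.61 (SE 0.29) and -0.75 (SE 0.36). COX6B1 stood at 93.7, 111.6 and 104.0 CPM in SNHG5 libraries, against 118.8, 230.7 and 121.4 CPM in control libraries. Control 2 held the highest level of each of these 4 genes. Without control 2, the estimates were -0.24 for NDUFA9, -0.29 for NDUFB11, -0.22 for COX6B1 and -0.27 for COX6A1.

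UQCR10 and CYC1 of complex III were at -0.68 (SE 0.34) and -0.43 (SE 0.25), and ATP5ME and ATP5MG of ATP synthase at -0.58 (SE 0.37) and 0.40 (SE 0.29). Without control 2 the estimates were -0.25 for UQCR10, -0.18 for CYC1, -0.054 for ATP5ME and 0.67 for ATP5MG. Without SNHG5 1 that of CYC1 was -0.28, and without control 3 that of ATP5MG was 0.15. Complex II has no mitochondrially encoded subunit, and 0 of its 4 subunits passed, SDHB lying at -0.28 (SE 0.32) and SDHC at 0.16 (SE 0.23). Of 78 mitochondrial ribosomal proteins, which assemble with MT-RNR1 and MT-RNR2, 0 passed, against 0.128% of all genes tested, with a median of -0.20. MRPS2 and MRPL17, of the small and large subunit, had the smallest p values. MRPS2 stood at 42.2, 46.7 and 36.0 CPM in SNHG5 libraries, against 68.6, 61.8 and 71.3 CPM in control libraries (-0.69, SE 0.19, edgeR adjusted p 0.348). The groups did not overlap, as they did not for MRPL17, at -0.99 (SE 0.30, edgeR adjusted p 0.513), or -0.63 without control 2. Of the 78 genes, 2 lay wholly higher and 5 wholly lower in SNHG5 libraries, beside 6.04% and 7.52% of all genes tested.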

How the data were processed

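RNA sequencing was performed on 6 A549 libraries, 3 per group. The submitters' processing notes name HISAT2, FastQC and GRCh38, with no versions. Neither the labels nor the notes state which program counted the reads, how it handled reads shared by genes, or whether it used strand. Whole-number counts and FPKM of 58302 genes were deposited by the authors. For all 37 members the deposited FPKM equalled the count scaled by the library total and the annotated gene length, within 0.5%, and members stood at their GENCODE release 29 positions. FPKM was used only to describe levels per length.

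Counts were tested across the whole table with edgeR 4.0.16 in R 4.3.3 (TMM scaling, filterByExpr minimum, robust quasi-likelihood test, two-sided, Benjamini-Hochberg adjustment over 15631 genes, threshold 0.05). The test was checked on simulated data, in which the changes set were larger than any estimate of a member. CPM values are TMM-scaled, except those of the marker genes, which use library totals. The SE is the log2 difference divided by the square root of F. Composition values were compared by exact permutation on the log2 scale. Floors cover counting error only.

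Same-numbered libraries deviated together from their group means, at correlations of 0.35, 0.16 and 0.29 over genes, each above 0.1. Among libraries of unlike number the highest correlations were 0.12 (SNHG5 2 with control 1) and 0.04 (SNHG5 3 with control 2). The labels' protocol speaks of pairs, so same-numbered libraries were compared as pairs in the replicate block and in the pair differences. The main edgeR and exact permutation tests used group only and took no account of pairs. Alternatives were the replicate block, each library left out, other scalings and filters, DESeq2 1.42.0, limma-voom (limma 3.58.1), and nuclear copies added. All members, the genes with the smallest p in each nuclear list and the 3 most counted copies are named. Members and lists were chosen with earlier results of these data known. Copy ratios, ranges between libraries and the count of members lowest in replicate 2 were described after the values were seen.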

Additional observations from a re-analysis of the deposited data

How the results depend on the processing

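The count of members called was 0 in each direction under all 15 alternatives, and the rRNA share kept its direction in the 9 alternatives computed for it. Of the nuclear mitochondrial lists, 0 members were called in the main fit, beside 20 of all 15631 genes tested. DESeq2 called 1 (PNPT1, -0.95), beside 266 of all genes tested. The replicate block changed no call. Paired by replicate number, the rRNA share differed by 0.40 with an exact sign-flip permutation p of 0.25, the smallest that 3 pairs can give. Without 1 library, the log2 difference ran from -0.011 to 0.51 for the share of counts, from -0.11 to 0.56 for protein genes, from -0.0606 to 0.60 for tRNAs, from -0.15 to 0.49 for the rRNA to protein gene ratio and from -0.073 to 0.23 for the MT-ND6 share. The sign turned without control 2, for the MT-ND6 share also without SNHG5 3, and for the ratio instead without SNHG5 2, control 1 or control 3. Of 348 gene estimates without 1 library, 46 turned in sign, 23 of them without control 2 and 14 without SNHG5 3, and none of these genes was called. Protein genes that turned ran from -0.21 to 0.36 (MT-ND1), -0.31 to 0.35 (MT-ND2), -0.13 to 0.50 (MT-CO1), -0.081 to 0.43 (MT-CO2), -0.26 to 0.44 (MT-ATP8), -0.019 to 0.75 (MT-ATP6), -0.078 to 0.32 (MT-CO3), -0.090 to 0.68 (MT-ND4L), -0.25 to 0.48 (MT-ND4), -0.30 to 0.40 (MT-ND5), -0.14 to 0.56 (MT-ND6) and -0.14 to 0.48 (MT-CYB). The tRNAs that turned ran from -0.19 to 0.35 (MT-TF), -0.29 to 0.26 (MT-TL1), -0.53 to 0.68 (MT-TQ), -0.32 to 0.12 (MT-TW), -0.12 to 0.38 (MT-TC), -0.16 to 0.47 (MT-TY), -0.36 to 0.47 (MT-TD), -0.029 to 0.77 (MT-TH), -0.24 to 0.47 (MT-TS2), -0.39 to 0.85 (MT-TL2), -0.19 to 0.42 (MT-TE) and -0.81 to 0.56 (MT-TP). Nuclear genes that turned ran from -0.039 to 0.67 (MTND2P28), -0.21 to 0.48 (MTATP6P1), -0.50 to 0.12 (SDHB) and -0.041 to 0.33 (SDHC). Under the other settings 8 of 501 estimates turned, all of tRNAs close to 0. MT-TF was at 0.037 with the replicate block, 0.025 with unscaled totals and 0.039 with limma-voom, and MT-TD at 0.12, 0.050 and 0.16 there, 0.0029 with RLE size factors and 0.0026 with DESeq2. The cause was not tested. With at least 50 counts in every sample 18 members could be tested.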
